A study of Schizosaccharomyces pombe with 4 samples.

Results

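The genes described here encode subunits of Mediator and of the general transcription factors of *Schizosaccharomyces pombe*. They were chosen by name: all protein-coding genes whose symbol starts with med, taf, tfa, tfb, tfg or tfs followed by a digit. This gave 35 genes of 5129. By complex there were 10 Mediator genes, 14 genes of TBP-associated factors (TAFs), 2 of TFIIE, 3 of TFIIF, 5 of TFIIH and 1 of TFIIS. They lie on all chromosomes, 17 on I, 10 on II and 8 on III. RefSeq product names matched the complex for each gene. Subunits of the same complexes that carry other symbols (TBP, TFIIB, TFIIA, the Srb proteins and others) are not in the set and are used for comparison.

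Mediator is a large assembly that links gene-specific activators to RNA polymerase II (RNAPII). Its head and middle modules contact the polymerase, and a kinase module can be added to or removed from it. At a promoter, TFIID (TBP with its TAFs) recognizes the core promoter, TFIIA and TFIIB stabilize it, TFIIF arrives with the polymerase, TFIIE and TFIIH open the DNA, and a kinase of TFIIH phosphorylates the polymerase tail. TFIIS acts later and rescues stalled polymerase by stimulating cleavage of the RNA.

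Nascent RNA was sequenced by NET-seq, which reads the 3′ part of RNA held by the polymerase. All libraries came from wild-type cells of strain YAM2492, whose Rpb3 subunit carries a Flag tag, grown exponentially in rich medium. Nascent RNA purified with the tagged polymerase gave 2 IP libraries, and total RNA of the same 2 biological replicates, taken through the same steps with no purification, gave 2 input libraries. No untagged strain and no treatment were compared, so all values describe a single growth state.

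The 35 genes were well covered in IP, with 92 to 1215 reads each in replicate 1 and 82 to 1145 in replicate 2. Input was thin, with 2 to 45 reads in replicate 1 and 5 to 98 in replicate 2, and 10 genes had under 10 reads in at least 1 input library. In these libraries tRNA took 5.59% and 5.79% of the reads in IP, against 94.5% and 89.9% in input. A gene level is given below as read density relative to the median protein-coding gene of the same library, so that 1 is the median gene. The median gene was covered by 369 and 338 IP reads, against 17 and 35 input reads. Of 10 meiotic genes, a check on cell state, 9 lay below the lower quartile of all genes in IP, and their median was 0.105, against 0.915 for the Mediator and factor genes. The tenth, *mei4*, a meiotic transcription factor gene, was above the median gene, at 1.27 and 1.23 in IP against 0.165 and 0.131 in input.

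Nascent transcription of the set was moderate and narrow. In a culture, fewer cells transcribing a gene and less transcription per cell cannot be told apart. The highest gene, *taf4*, was 5.24-fold above the lowest, *med8*, and 30 of 35 genes fell between the quartiles of all protein-coding genes. In both IP libraries 15 genes exceeded the median gene, and 18 stayed below it in both. The median level was 0.915 in IP (0.932 and 0.922 in the replicates) and 1.04 in input. On the log2 scale the SD over the genes was 0.56, against 1.83 over all genes. It was 0.44 over 11 RNAPII subunit genes and 0.63 over 18 elongation factor genes, so a narrow range was not particular to the set. Over 13 genes of the SAGA coactivator it was 1.20, and over 22 Mediator and factor genes with other symbols 1.31. IP replicates differed by at most 0.40 on that scale for any of the 35 genes. Input replicates differed by up to 1.93, and 24 of 35 genes stayed within 0.5. In the order of IP levels, 28 of 34 neighbouring pairs had overlapping replicate ranges, so only coarse ranks can be read from it.

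**Figure D1:**
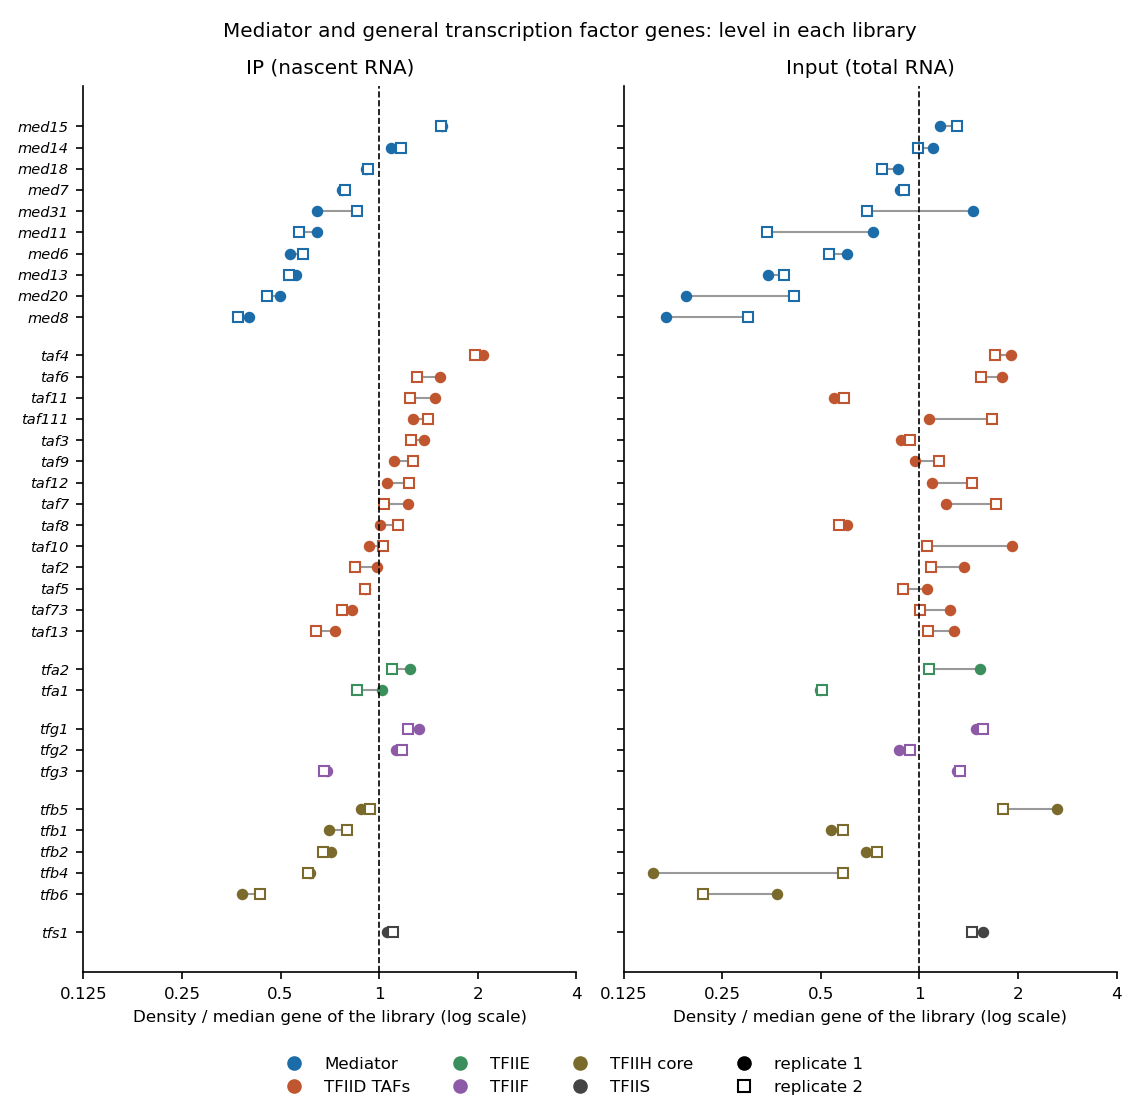
Read density relative to the median protein-coding gene of the library (log axis, dashed line at 1) for the 35 genes in IP (left) and input (right), grouped by complex. Circles are replicate 1, squares replicate 2, and the bar joins them. Over whole annotated intervals the TAF genes centre on 1.14 and the Mediator genes on 0.68 in IP. The replicates lie closer together in IP than in input.

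The 14 TAF genes stood at a median of 1.14 in IP and 1.20 in input. None lay below the lower quartile of all genes in IP. The highest, *taf4* (chromosome I, 884365-885989 of build ASM294v2, plus strand), encodes a TFIID subunit with a histone fold. Its level was 2.07 and 1.96 in IP, against 1.90 and 1.71 in input, which placed it at the 78.4th percentile of protein-coding genes in IP. It shares 46 nt with *rpn6* on the same strand, and its coding segments alone gave 1.96. The next were *taf6* at 1.42 ± 0.162, *taf11* at 1.36 ± 0.174, *taf111* at 1.34 ± 0.10 and *taf3* at 1.31 ± 0.083 in IP (SD, n = 2). Taf111 is a TFIID subunit related to human TAF1. The *taf111* interval shares 29 nt with *atg22* on its strand.

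The middle of the TAF group was formed by *taf9* (1.19), *taf12* (1.14), *taf7* (1.13), *taf8* (1.07), *taf10* (0.980), *taf2* (0.913) and *taf5* (0.905). Taf9, Taf10 and Taf12 are annotated as subunits of both TFIID and SAGA, a coactivator that acetylates histones. Their genes did not stand apart from the rest of the TAF genes in these values. The lowest TAF gene was *taf13*, at 0.731 and 0.643 in IP and 1.27 and 1.06 in input. Its interval shares 64 nt with the noncoding SPNCRNA.1287 on the same strand, and its coding segments alone gave a higher IP level, 1.07.

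*taf5* and *taf73* encode related WD-repeat proteins, each annotated as TFIID subunit 5 or its relative. *taf5* had 0.907 and 0.902 in IP, against 1.06 and 0.890 in input. *taf73* had 0.826 and 0.770 in IP, against 1.24 and 1.01 in input. The IP ranges of the pair did not overlap, and *taf5* was slightly higher. Reads from stretches the genes have in common would have been lost, since only uniquely mapped reads were kept.

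Mediator genes had lower IP levels than TAF genes over the whole annotated interval. Their median in IP was 0.65 and 0.69 in the replicates, against 1.08 and 1.19 for TAF genes and 1 for the median gene. Over coding segments alone the groups lay closer together. There the Mediator genes ran from 0.458 (*med13*) to 1.16 (*med15*) and the TAF genes from 0.789 (*taf2*) to 1.96 (*taf4*). Only *med15* and *med14* exceeded the median gene over the whole interval. *med15*, encoding a subunit that in budding yeast belongs to the activator-binding tail, had the highest Mediator level, 1.55 and 1.55 in IP against 1.15 and 1.30 in input. This interval shares 485 nt with *puf2* on the same strand, a gene at 88.2 RPKM (reads scaled by length and library size) in IP, and the coding segments of *med15* alone gave 1.16. *med14*, which encodes the scaffold that joins the modules, had 1.09 and 1.16 in IP, against 1.10 and 0.989 in input. Over its coding segments alone the IP level was 0.961, below the median gene.

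The other Mediator genes were *med18* (0.915), *med7* (0.777), *med31* (0.749), *med11* (0.608), *med6* (0.560), *med13* (0.544), *med20* (0.477) and *med8* (0.385). *med8* (chromosome II, 3219316-3222152, plus strand), a head module gene, was the lowest of all 35 genes. It had 0.399 and 0.371 in IP, against 0.168 and 0.299 in input. Its annotated interval of 2837 nt is only 21.3% coding, and over the coding segments alone its IP level was 0.673. *med20*, another head gene, had 0.499 and 0.455 in IP, against 0.193 and 0.414 in input, where it had 2 and 9 reads.

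The Mediator genes named otherwise, such as *srb4* (Med17) and *nut2* (Med10), ran from 0.301 (*srb6*) to 1.42 (*rox3*) in IP. Only *rox3* of these exceeded the median gene. By module, with genes of either kind of name counted, the 7 head genes had a median of 0.477. The 6 middle genes had 0.763 and the 4 kinase module genes 0.654. The ranges of the modules overlapped: 0.301 to 0.915 in the head, 0.453 to 0.936 in the middle and 0.488 to 0.841 in the kinase module. Over coding segments alone the medians were 0.567 in the head, 0.809 in the middle and 0.572 in the kinase module. Head and kinase module were thus nearly level there. *med14*, *med15*, *rox3* and *pmc3* were placed in none of these modules.

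TFIIE consists of a large and a small subunit, encoded by *tfa1* and *tfa2*. *tfa2* had 1.24 and 1.09 in IP, against 1.53 and 1.07 in input. *tfa1* had 1.02 and 0.855 in IP, against 0.496 and 0.505 in input. The 2 genes differed less in IP than in input. Over the whole interval TFIIF was led by *tfg1*, its large subunit, with 1.32 and 1.22 in IP against 1.49 and 1.56 in input, and *tfg2* followed at 1.12 and 1.18 in IP against 0.868 and 0.933 in input. *tfg3* encodes a YEATS domain protein that is also annotated to TFIID, SWI/SNF, Ino80 and NuA4. It was lower, 0.695 and 0.679 in IP against 1.31 and 1.33 in input. Over coding segments alone the order of the TFIIF genes in IP was turned round, with 1.67 for *tfg2*, 1.34 for *tfg3* and 1.21 for *tfg1*.

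All 5 TFIIH genes stayed below the median gene in IP over the whole interval, but over coding segments alone *tfb5* was above it, at 1.19 and 1.30. *tfb5*, a small subunit, was the highest of the 5, at 0.879 and 0.940 in IP, against 2.63 and 1.80 in input, over an interval that shares 58 nt with the strong unit SPNCRNA.1551. *tfb1*, *tfb2* and *tfb4*, which encode core subunits, stood at 0.749, 0.692 and 0.610 in IP. IP held 176 and 164 reads of *tfb4*, against 2 and 16 in input, so its input level of 0.154 and 0.585 is imprecise beside 0.613 and 0.606 in IP. *tfb6* was the lowest, at 0.382 and 0.432 in IP and 0.367 and 0.218 in input, and shares 66 nt with the gene SPCC1494.08c on its strand. *tfs1*, the TFIIS gene, had 1.06 and 1.10 in IP, against 1.56 and 1.45 in input.

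Recounted over coding segments alone, 22 of 35 IP levels moved by more than the SD of their replicates, and 13 stayed within it. The largest fall was in *med15*, to 0.746 times its level over the whole interval. By over 1.5 times 4 levels moved, all upward: *taf13*, *med6*, *med8* and *tfg3*. *tfg3* changed most, to 1.34 over coding segments against 0.687 over the whole interval. These intervals are 21.3% to 30% coding. The median of the 35 genes was 0.964 over coding segments.

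The genes of the same machinery that lie outside the name rule covered a wider range. Among 22 other Mediator and factor genes the IP level ran from 0.249 (*pmh1*, a subunit of the TFIIH kinase) to 7.52 (*tbp1*), with a median of 0.817. Those described here were picked after the values were seen. *tbp1*, the TATA-binding protein, had 7.72 and 7.31 in IP, against 3.76 and 3.34 in input. *sua7* (TFIIB) had 4.39 and 4.11 in IP, against 2.63 and 1.40 in input, and *toa1*, the large TFIIA subunit, had 3.07 and 2.85 in IP, against 1.81 and 2.88 in input. Each of these exceeded *taf4*, the highest of the 35 genes, in both IP libraries, as did *mot1*, which encodes a TBP-removing ATPase, with 2.46 on average. *toa2*, the small TFIIA subunit, had 1.59 and 1.75 in IP, against 0.779 and 1.03 in input, below *taf4*.

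The 11 RNAPII subunit genes found by name had a median of 2.04 in IP, and all exceeded the median gene. The 13 SAGA genes had a median of 0.69, and the 18 elongation factor genes 1.35. The SAGA gene *spt20* stood at 9.56 and shares nucleotides with another unit on its strand.

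**Figure D2:**
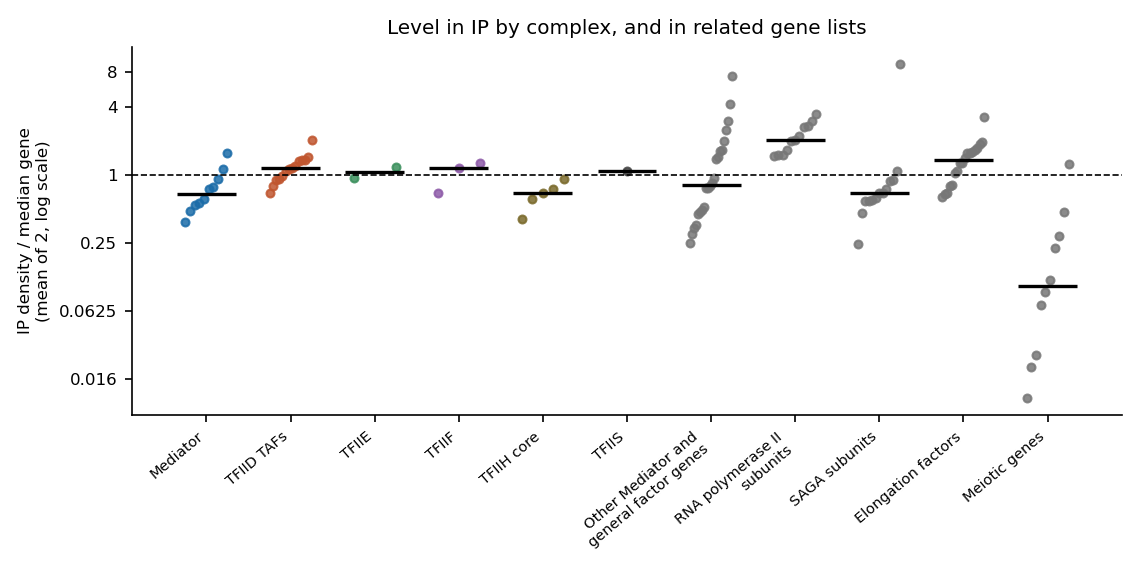
Mean IP level relative to the median protein-coding gene (log axis, dashed line at 1) for each of the 35 genes by complex (coloured) and for related gene lists (grey). Points are genes, black lines are medians, and levels are over whole annotated intervals. RNAPII subunit genes centre on 2.04, TAF genes on 1.14 and Mediator genes on 0.68, and *tbp1* reaches 7.52 among the other factor genes.

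IP was then compared with input gene by gene. With libraries scaled on their uniquely mapped reads, as in the deposited table, all 35 genes were higher in IP (limma, Benjamini-Hochberg adjusted p at most 0.0021). The background was almost as high, 92.8% of 8912 units tested. The log2 change, on the log2(RPKM + 1) scale, ran from 2.66 in *tfb5* to 4.33 in *taf11*.

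On the median-gene scale the set was balanced. The median log2 change was 0.00, against -0.09 over 5068 genes, with 18 genes above 0 and 17 below. Changes here are on the scale log2(level + 0.1). The test called 3 genes higher in IP, beside 9.94% of all genes, and 3 lower, beside 22.5%. Of the 35 genes, 14 had both IP values above both input values, beside 30.3% of all genes, and 10 had both below, beside 41.3%.

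Among the genes higher in IP, *taf11* (chromosome I, 1803624-1804491, minus strand) differed most. It had 1.49 and 1.24 in IP, against 0.548 and 0.586 in input. Its log2 change in limma was 1.13, with an SE of 0.160 and an adjusted p of 0.0091. IP rested on 239 and 188 reads, input on 4 and 9. Taf11 pairs with Taf13 through histone folds, and *taf13* was called in the other direction at -0.68 on the log2 scale (SE 0.166, adjusted p = 0.039 in limma). Over coding segments alone the *taf13* change was -0.12 and was not called (limma adjusted p = 0.81).

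*tfa1*, the large TFIIE subunit gene, was also higher in IP, by 0.78 on the log2 scale (SE 0.164, adjusted p = 0.027 in limma). *taf8*, which encodes the histone-fold partner of Taf10, had 1.00 and 1.14 in IP, against 0.599 and 0.569 in input. It was higher by 0.77 on the log2 scale (SE 0.152, adjusted p = 0.023 in limma). The groups did not overlap in either gene, but input held only 7 reads in replicate 1 for each, and 15 reads for *tfa1* and 14 for *taf8* in replicate 2.

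The lower genes were *tfb5*, *tfg3* and *taf13*. *tfb5* (chromosome II, 2809816-2810539, plus strand) had the largest decrease, at -1.17 on the log2 scale (SE 0.210, adjusted p = 0.018 in limma). Its 724-nt interval shares 58 nt with SPNCRNA.1551 on the same strand, a noncoding unit at 304.2 RPKM in IP, and the coding segment alone gave a change of -0.57. *tfg3* fell by 0.85 on the log2 scale (SE 0.132, adjusted p = 0.012 in limma). Its IP reads were 329 and 303 and its input reads 28 and 60, the best covered of the 6 genes in input. Over its coding segments the change was -0.77, and it was not called there (limma adjusted p = 0.063).

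The remaining 29 genes were not called. The largest changes among these were 0.77 in *tfb4*, 0.57 in *med20* and 0.57 in *med8* on the upper side, and -0.50 in *taf10*, -0.44 in *tfs1* and -0.44 in *taf73* on the lower side. *taf10* had 0.932 and 1.03 in IP, against 1.92 and 1.06 in input. *taf3* and *tfs1* came close to the threshold, at 0.49 and -0.44 (limma adjusted p = 0.053 and 0.054). Of the 10 Mediator genes limma called 0, beside 9.94% of all genes higher and 22.5% lower, with 1 higher at an unadjusted p under 0.05 and a median change of 0.19. edgeR called 2 of them higher, *med13* and *med15*, beside 18.4% of all genes.

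The 6 calls needed both IP libraries, although the changes moved little. Without IP replicate 1 limma called 0 of the 35 genes, with 1 higher and 1 lower at an unadjusted p under 0.05. Without IP replicate 2 it called 0, with 1 higher and 2 lower. In these fits a single IP library remained, and it was assumed to vary like the thin input libraries, which alone gave the spread. The change in *taf11* was 1.00 without IP replicate 1 and 1.25 without IP replicate 2 (limma adjusted p = 0.20 and 0.15), in *tfb5* -1.13 and -1.22, and in *tfg3* -0.86 and -0.83, and all 6 genes kept their direction. Leaving out an input library left a single input library, so the IP libraries alone gave the spread. The calls of those fits are therefore not set against the main fit. Without input replicate 1 and without input replicate 2 the change was 1.09 and 1.17 in *taf11*. It was 0.77 and 0.79 in *tfa1*, 0.81 and 0.74 in *taf8*, and -0.56 and -0.81 in *taf13*. edgeR with TMM, under which the median change of all genes was 0.06 in place of -0.09, called 6 higher and 2 lower, beside 18.4% and 20.9% of all genes.

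**Figure D3:**
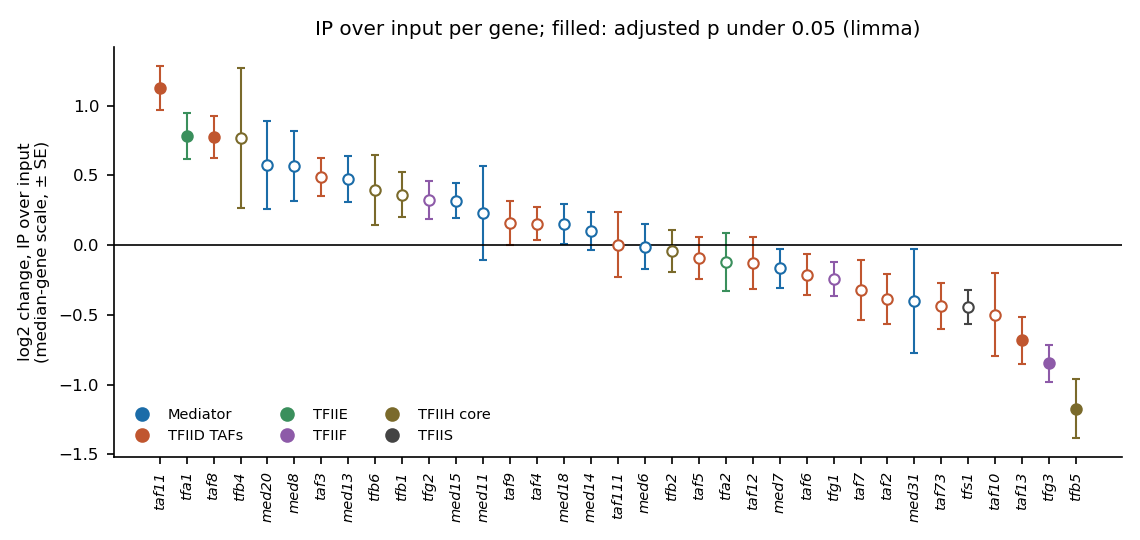
The log2 change of IP over input on the median-gene scale for the 35 genes, ordered by size. Points are estimates from limma, bars are SE, colours give the complex, and filled points passed an adjusted p of 0.05. The 3 filled points at the left are *taf11*, *tfa1* and *taf8*, and the 3 at the right are *taf13*, *tfg3* and *tfb5*.

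The same test was read for the other genes of the machinery, beside 9.94% of all genes called higher and 22.5% lower. Of 22 other Mediator and factor genes, limma called 3 higher in IP and 0 lower. At an unadjusted p under 0.05 there were 5 higher and 3 lower, and edgeR called 9 and 1, beside 18.4% and 20.9% of all genes. *tbp1* rose by 1.06, *srb10* (the Mediator cyclin-dependent kinase) by 1.21 and *toa2* (the small TFIIA subunit) by 0.83. Input held 53 and 99 reads of *tbp1*, but only 3 and 8 of *srb10* and 9 and 25 of *toa2*. Of 11 RNAPII subunit genes limma called 1 higher and 6 lower, beside the same 9.94% and 22.5%. The higher one was *rpb3*, at 2.74 and 2.67 in IP against 1.27 and 1.25 in input, which is the tagged gene in this strain. Of 18 elongation factor genes 3 were higher and 6 lower, and of 13 SAGA genes 1 was higher and 2 lower, beside these shares of all genes.

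The study asked how antisense transcription relates to the level of a gene. Antisense reads over a gene were not tabulated as such, so units annotated on the other strand were used. Noncoding RNAs, noncoding transcription units of a later annotation (nc-TUs) and XUTs (noncoding RNAs degraded by the cytoplasmic exonuclease Exo2) were counted where they overlapped a gene by at least 50 nt and exceeded 1 RPKM in IP. This was so for 12 of 35 genes (34.3%), beside 30.9% of all protein-coding genes. A protein-coding gene overlapped on the other strand in 15 (42.9%, beside 35.9%), and 21 (60%, beside 50.2%) had another unit converging on their 3′ end within 500 bp.

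The 12 genes carried 16 such units. Each unit was below its gene in both IP libraries. Input held at most 2 reads on any of them and none in either library for 7. The strongest was XUT0471, which covers 47.6% of *taf9* including its start. It had 77 and 80 reads in IP, against 0 and 1 in input, and stood at 14.8 and 15.3 RPKM in IP, beside 29.1 and 31.1 for *taf9*. The snoRNA sno52 also lies opposite *taf9*, over 95 nt.

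XUT1090 overlaps 20.0% of *med14* and had 66 and 53 reads in IP, against 1 and 1 in input. novelncTU_218 covers 66.2% of *med31*, with 46 and 49 reads in IP, against 0 and 1 in input. At 10.3 RPKM beside 18.9 for *med31* it came closest to the level of its gene. novelncTU_264 overlaps 8.04% of *taf111*, with 21 and 19 reads in IP, against 1 and 0 in input.

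*taf73* had 3 antisense units. taf73-antisense-1 covers 51.6% of the gene and had 57 and 31 reads in IP. XUT0355 had 46 and 20 reads and XUT0354 had 10 and 8 reads in IP. These units lie within the same region of the gene and can share reads. None had a read in input. *tfb5* had 2, tfb5-antisense-1 with 20 and 24 reads and XUT0343 with 5 and 10 reads in IP, both across the start of the gene and with no input read.

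The levels of these genes on the median-gene scale were as follows. *taf9* had 1.11 and 1.27 in IP, against 0.966 and 1.15 in input. *taf111* had 1.27 and 1.41 in IP, against 1.07 and 1.66 in input. *med31* had 0.645 and 0.853 in IP, against 1.46 and 0.693 in input. In each of them the IP range and the input range overlapped. In *taf73* and *tfb5*, given above, both IP values were below both input values.

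The other 6 genes were *tfb2* (SPBC31F10.02-antisense-1, 48 and 42 reads in IP), *taf5* (SPNCRNA.1148, 24 and 13), *med6* (novelncTU_31, 11 and 10), *med13* (SPAC589.03c-antisense-1, 44 and 44, and XUT1465, 10 and 7), *taf7* (XUT1410, 5 and 5) and *med18* (XUT1379, 3 and 7). At 2 and 0 reads in input, XUT1379 was the least distinct from input. On the median-gene scale *tfb2*, a TFIIH core gene, had 0.711 and 0.672 in IP, against 0.687 and 0.742 in input. *med6*, a head gene, had 0.535 and 0.585 in IP, against 0.600 and 0.530 in input. *taf7*, a TFIID gene, had 1.23 and 1.03 in IP, against 1.20 and 1.71 in input. The libraries overlapped in these genes. *med18*, a head gene, had 0.909 and 0.922 in IP, against 0.862 and 0.769 in input, and *med13*, a kinase module gene, had 0.557 and 0.532 in IP, against 0.344 and 0.386 in input. Both IP values were above both input values in these genes, which limma did not call. The 12 genes had a median IP level of 0.907 (range 0.544 to 1.34). The 23 others had 0.980 (range 0.385 to 2.02), and the ranges overlapped. Those 23 lack only a noncoding unit of this kind, and some, such as *taf4* and *med8*, lie opposite a protein-coding gene. Genes with and without antisense transcription are therefore not compared by these medians.

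**Figure D4:**
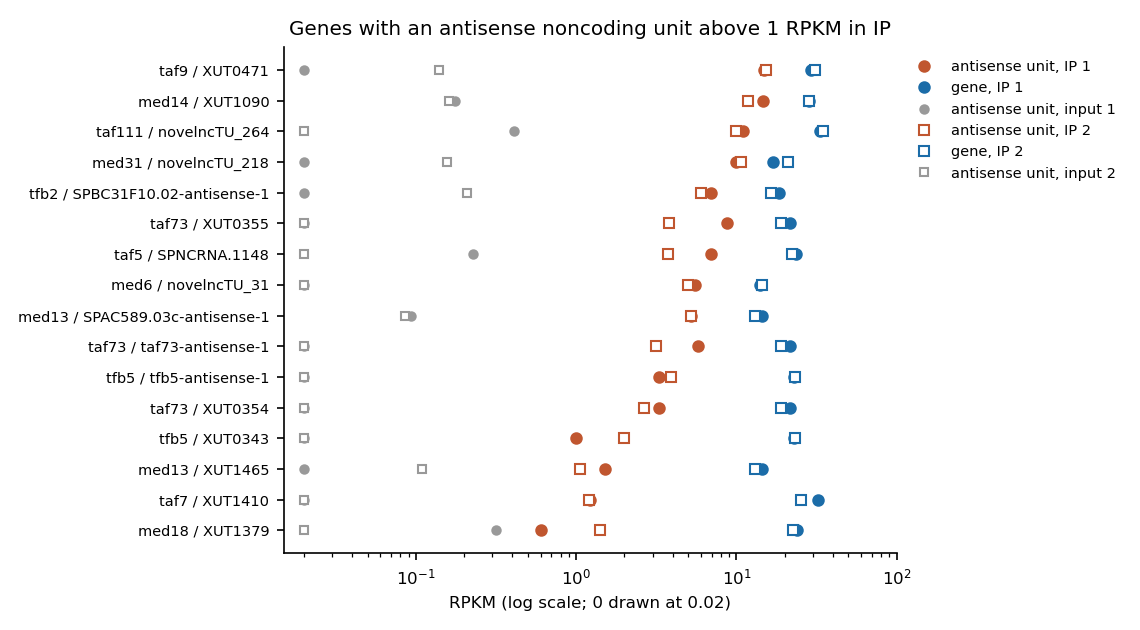
IP level in RPKM (log axis) of each antisense noncoding unit above 1 RPKM (orange), of the gene it overlaps (blue), and of the unit in input (grey, 0 drawn at 0.02). Circles are replicate 1 and squares replicate 2. All 16 units lie below their gene in both IP libraries, and 7 have no read in input.

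Long overlaps with a convergent or opposite gene were found at both ends of the range of levels. *taf8* is covered over 98.8% of its length by SPCC1259.16 and *med11* wholly by *pkp1*. *ssr3* covers 90.9% of *taf4*, the highest gene, and *ral2* covers 77.9% of *med8*, the lowest. *med7* is overlapped over 2713 nt by *ade8*, a gene at 69.8 RPKM in IP, beside 19.7 for *med7*. *tfg2* is overlapped over 1312 nt by *mfr1*, a meiotic gene at 0.268 RPKM in IP, beside 29.1 for *tfg2*.

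Finally, the reads were followed along the coding segments. Of the 35 genes, 25 have more than 1 segment, 79 in all. Reads are 50 nt long, and in IP short segments held about as many reads as a count of every read touching them would give. Density is therefore given as reads per kb of (length + 49 nt), also for input, where this was not checked. On this scale the first segment exceeded the last by a median of 1.64 and 1.46 times in IP, beside 1.85 and 1.62 for 2301 genes. It was higher in both IP libraries in 16 of 25 genes (64%, beside 77.9% of all), and the last was higher in both in 3. Per plain length the count was 23 of 25 (92%, beside 84.1%). Pooled over the 25 genes the ratio was 1.73 and 1.53 in IP and 1.13 and 0.940 in input, where first segments held 64 and 137 reads in all. For the 2301 genes the pooled ratio was 1.42 and 1.24 in IP and 1.18 and 1.11 in input, so in IP the set was above all genes in the pooled ratio and below them in the median.

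*tfb1*, with 6 segments the most divided gene, had its highest density in the first segment and its lowest in the fifth. Its segments, from 5′ to 3′, held 38, 43, 96, 27, 53 and 12 reads in IP replicate 1 and 34, 36, 116, 28, 50 and 12 in IP replicate 2. With lengths of 46, 87, 663, 184, 544 and 78 nt this came to 400.0 and 357.9 reads per kb in the first segment and 94.5 and 94.5 in the last. The 10 input reads of replicate 1 and 23 of replicate 2 were too few to give a profile. *taf2*, encoding a large TFIID subunit, had 63 and 43 reads in a first segment of only 32 nt, and its first segment exceeded the last 6.90 and 5.28 times.

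The first segment also exceeded the last in *med15* (6.38 and 6.91 times), *med6* (6.88 and 3.33), *taf5* (3.13 and 6.44), *taf111* (3.67 and 2.86), *med18* (2.48 and 2.62) and *tfg1* (3.77 and 1.92). The profile was flat in *tfg3*, at 1.06 and 0.96 times, and in *tfb2*, at 1.06 and 0.98. *med11* (0.55 and 0.61) and *tfb4* (0.92 and 0.60) had a higher density in the last segment in both libraries. The last segment of *med11* is 16 nt long and held 12 and 8 reads. *med13* (0.94 and 0.20) was the other, with a first segment of 6 nt that held 5 and 1 reads. RefSeq gives *med13* 2 coding segments in place of the 3 used here.

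**Figure D5:**
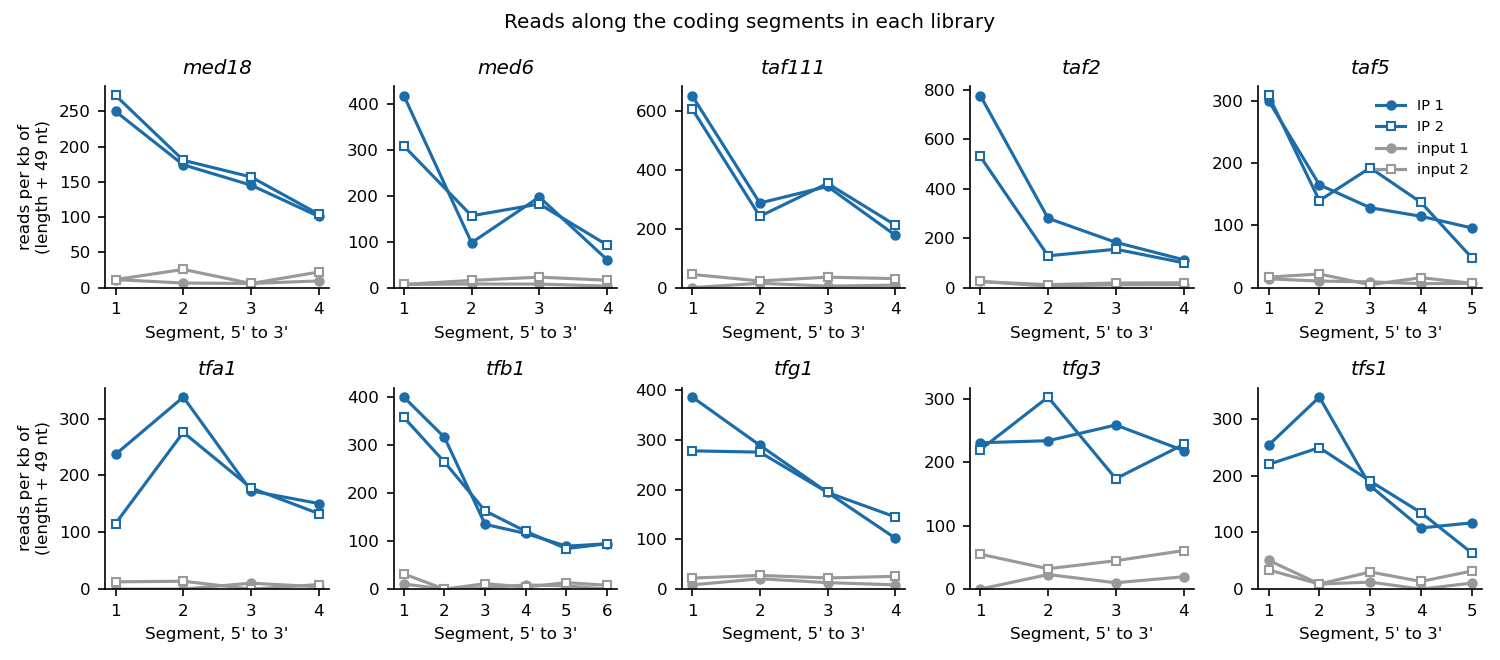
Reads per kb of (length + 49 nt) in each coding segment, from 5′ to 3′, for the 10 genes with at least 4 segments. Blue is IP and grey is input, circles are replicate 1 and squares replicate 2. In *tfb1* the IP density is 400.0 and 357.9 in the first segment and 94.5 in the last, while *tfg3* is flat.

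The introns between these segments are short, and several are shorter than a read, so that reads can span them. RefSeq lists 53 introns in the 25 genes, 35 to 226 nt long with a median of 56 nt, and 21 of them are under 50 nt. All start with GT and end with AG. The 5′ splice site motif GTANGT opens 47.2% of them (54.1% of 5092 coding introns of the genome), and a branch-site motif (CTNAN with A or G as the first N and C or T as the last, on the sense strand before the final AG) was found in 77.4% (76.5%). All introns under 50 nt of *tfb1* and *taf111*, 4 and 3, are shown because they separate segments described above and are shorter than the read. They come from the RefSeq genome ASM294v3, on which the coding segments of 34 of the 35 genes had the same coordinates as in the deposited table. The exception was *med13*. Capitals mark the first 6 bases, the last branch-site motif and the final AG.
*tfb1* intron 1, chrI:3522288-3522324, minus strand: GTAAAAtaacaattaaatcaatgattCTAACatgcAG
*tfb1* intron 2, chrI:3522156-3522200, minus strand: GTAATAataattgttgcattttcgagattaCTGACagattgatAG
*tfb1* intron 3, chrI:3521448-3521492, minus strand: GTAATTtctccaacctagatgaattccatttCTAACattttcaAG
*tfb1* intron 5, chrI:3520620-3520662, minus strand: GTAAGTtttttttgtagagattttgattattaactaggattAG
*taf111* intron 1, chrI:838383-838424, plus strand: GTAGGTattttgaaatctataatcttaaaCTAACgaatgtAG
*taf111* intron 2, chrI:838996-839043, plus strand: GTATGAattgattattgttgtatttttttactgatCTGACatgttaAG
*taf111* intron 3, chrI:839193-839230, plus strand: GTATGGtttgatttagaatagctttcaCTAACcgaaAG

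These introns are 37 to 48 nt long. From the A of the branch motif to the end of the intron, 7 bases remain in *tfb1* intron 1 and *taf111* intron 3, 9 in *taf111* introns 1 and 2, 10 in *tfb1* intron 3 and 11 in *tfb1* intron 2. *tfb1* intron 5 has no such motif, although it opens with GTAAGT. The table holds no intron values, so splicing was not measured here.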

How the data were processed

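NET-seq libraries (2 IP, 2 input) of wild-type *S. pombe* were grouped by the sample titles. The authors mapped 50-nt reads uniquely with Bowtie to ASM294v2 and divided by the number of mapped reads of the library. The deposited signal is a normalized read count per annotated feature and strand. How reads touching several features were counted is not given in the sources used here. Of the deposited columns, 4 were not used. Each library's values came in steps of a fixed size (100% within 0.001 of a step), taken as single reads, so whole reads were recovered. They were put on an RPKM scale with a common factor that gives IP replicate 1 the smallest library the study states, 7100000 reads. The other totals were 7117477 (IP), 9082385 and 9823089 (input). The RPKM levels rest on that anchor. In these libraries 3 reads on 1 kb came to 0.305 to 0.423 RPKM. Reads carry no molecular identifiers, so counting precision covers counting error only.

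From the signal, limma with a trend was run on log2(RPKM + 1) over 8912 units and on log2(level + 0.1) over 5068 protein-coding genes, where the level is density over the median gene, with Benjamini-Hochberg adjustment and a threshold of 0.05. The pseudocount understates changes of low genes. edgeR's quasi-likelihood test and DESeq2 on the recovered reads were alternatives, as were other pseudocounts, filters, scalings, coding segments only, a replicate block and leaving out each library. The sample titles give IP and input a common replicate number, which was read as the same culture. Differences between replicates in IP and input correlated at 0.134 over 5068 genes and 0.257 over 3473 genes with at least 10 reads in each input library. The fits were first tested on made-up counts with known changes. Of inner coding segments under 30 nt, 110 held in IP 3.53 times the reads their length predicts and 0.937 times those predicted for reads touching them. Input reads were not used in this check.

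The genes, gene lists and tests were chosen with earlier results of these data known. All 35 genes were named with their IP level. Full values were given for the highest and lowest gene of each complex, called genes, the 5 largest and 5 smallest changes, the related pair *taf5* and *taf73*, genes with an antisense unit above 1 RPKM, and genes with 3 or fewer reads in an input library. Of genes on the comparison lists, 3 (*pmc1*, *rtf1* and *elf1*) were left out because RefSeq gives them other products. Further listed names were not found among the gene names and are also absent. Found were 22 of 29 other Mediator and factor genes and 11 of 12 RNAPII subunit genes. For SAGA 13 of 14 were found, and for elongation factors 18 of 19. The Mediator modules were added after the values were seen. Versions were R 4.3.3, limma 3.58.1, edgeR 4.0.16, DESeq2 1.42.0, Python 3.11.15, numpy 2.4.6, pandas 2.3.3 and matplotlib 3.10.9.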

Additional observations from a re-analysis of the deposited data

How the results depend on the processing

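Of the 35 genes, limma called 35 higher in IP with library scaling under both other pseudocounts, the filter on low units, the replicate block and each library left out (35 to 35). The count was 1 with quantile normalization, which changed the scaling alone, and 6 with edgeR and 1 with DESeq2, which changed the scaling and the test together. Of all 8912 units, these fits called 916, 1312 and 707 higher. On the median-gene scale, 3 higher and 3 lower were called with both other pseudocounts and with the replicate block, which changed no call. With at least 10 reads in each input library, 25 genes remained in the fit, and 1 was higher and 4 lower. Of all 3473 genes in that fit, 316 were higher and 1288 lower. edgeR with TMM called 6 higher and 2 lower, beside 934 and 1059 of 5068 genes. With a replicate block added, an alternative chosen after seeing the data, it called 7 and 2, beside 1041 and 1146. Coding segments only gave 3 higher and 1 lower, beside 408 and 983 of 5062 genes. With each library left out the counts ran from 0 to 11 higher and from 0 to 9 lower. The direction of the 6 called genes was the same under every alternative in which they were fitted, and 4 of the 6 calls held with DESeq2 and 5 with edgeR. Over all 5068 genes limma called 504 higher and 1140 lower, with edgeR 934 and 1059, without IP replicate 1 51 and 257, without IP replicate 2 50 and 296, without input replicate 1 1134 and 1781, and without input replicate 2 1271 and 1809. The cause of these differences was not tested. The median IP level of the 35 genes was 0.915, with 0.922 and 0.932 for single replicates and 0.964 over coding segments. Other overlaps and distances gave 10 to 12 genes with an antisense noncoding unit, 10 to 17 with an antisense gene and 21 to 23 with a convergent unit. Input depth limits all changes: 17 and 35 reads at the median gene.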
